A study of Mus musculus with 6 samples.

Results

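The respiratory chain genes of mouse mesoderm explants were described gene by gene across 3 culture conditions. Members were taken by name from the gene column: the Nduf genes of families a, b, c, s and v, the Uqcr genes, Cox4 to Cox8, the Atp5 genes, and the mt-Nd, mt-Co, mt-Cytb and mt-Atp genes of the mitochondrial genome. The rule gave 93 of the 46078 genes in the count table, 80 of them encoded in the nucleus and 13 in the mitochondrial DNA, and it left out 11 pseudogene names ending in -ps. Complex I had 36 nuclear and 7 mitochondrially encoded members, complex III 8 and 1, complex IV 19 and 3, and complex V 17 and 2.

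The tissue was mesoderm dissected from wild-type embryos at E7.25, of a line that the series text names TCF/Lef:H2B-GFP, a reporter of WNT signalling. PD explants received 1 µM of a compound that the labels call only PD, and YZ9 explants received 10 µM YZ9, a compound known as an inhibitor of the glycolytic regulator PFKFB3, each for 16 h. Control explants were listed as control, with no vehicle named. Explants of all 3 groups were grown on fibronectin and frozen after 27 h of culture according to the growth protocol, while the series text gives 24 h. Each group had 2 libraries of polyadenylated RNA. Nothing in the labels says how many embryos or explants went into a library, so the spread between libraries may be partly technical.

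The respiratory chain carries electrons from NADH through complex I, and from succinate through complex II, to complex III, cytochrome c and complex IV, where oxygen is reduced. Complexes I, III and IV pump protons across the inner mitochondrial membrane, and complex V, the ATP synthase, uses the gradient to make ATP. Subunits come from 2 genomes. The mitochondrial DNA is read as long transcripts that are cut into single messages, and the nuclear genes are each transcribed on their own, many under the factors NRF1, GABPA and YY1. In the gastrulating embryo glycolysis is known to carry much of the energy supply of the epiblast and early mesoderm.

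The libraries held 21253194 to 27810161 counts, of which the members took 2.12% to 2.58% and the mitochondrially encoded members 0.605% to 0.849%. Libraries 2 of PD and of YZ9 were female by Xist (2119 and 3956 counts) and the other 4 were male (0 or 1 Xist counts, 4286 to 9736 counts over 4 Y-linked genes). Of 15 mesoderm markers, 12 passed the filter on low counts, and the early markers Mesp1, T and Tbx6 had 15 counts or fewer in every library. The summed level of all 15 was 527 and 1092 CPM (counts scaled to library size) in PD explants, 468 and 870 CPM in YZ9 explants, and 598 and 382 CPM in control explants. Markers of cardiac muscle, 7 of 7 detected, summed to 4129 and 1459 CPM in PD explants, 4039.8 and 1794 CPM in YZ9 explants, and 5395 and 4404 CPM in control explants. The cardiac sum was carried by Actc1, cardiac actin, and 1 of the 7 markers, Myl7, was below both controls in all 4 treated libraries. Without Actc1 the cardiac sum was 1365 and 242 CPM in PD explants, 2386 and 1165 CPM in YZ9 explants, and 2087 and 1951 CPM in control explants, with YZ9 library 1 above both controls. The mesoderm sums overlapped too. Blood and endothelial markers, 9 of 9 detected, summed to 548 and 7000.5 CPM in PD explants, 80 and 1275 CPM in YZ9 explants, and 2637 and 7776 CPM in control explants. Endoderm and epithelial markers, 6 of 7 detected with Cer1 near 0, summed to 608 and 98.7 CPM in PD explants, 374 and 134 CPM in YZ9 explants, and 12.8 and 19.4 CPM in control explants. Outside YZ9 library 1 the blood and endothelial sum was carried by globins. Blood markers differed widely within each group, and epithelial markers were higher in all 4 treated libraries. Trophoblast markers, 5 of 6 detected and with Elf5 and Tfap2c near 0, summed to 10501 and 7128 CPM in PD explants, 6333 and 5322 CPM in YZ9 explants, and 5439 and 4782 CPM in control explants. Visceral endoderm markers, 7 of 10 detected, summed to 205 and 74.5 CPM in PD explants, 313 and 280.0 CPM in YZ9 explants, and 250 and 255 CPM in control explants. Of these, Amn, Apoa1, Apoa4, Apob and Hnf4a had 15 counts or fewer in every library. The trophoblast sum was higher in both PD libraries than in both controls. It was carried by the keratins Krt8 and Krt18. Plac1 was also higher in both PD libraries, and Cdx2 was lower (0.692 and 0.523 CPM against 7.38 and 1.62 CPM). The visceral endoderm sum was lower in both PD libraries and higher in both YZ9 libraries. Its largest part was Apoe, at 114 and 56.9 CPM in PD, 308 and 272 CPM in YZ9 and 244 CPM in each control library. Afp, Rbp4 and Ttr were higher in both PD libraries than in both controls. Afp stood at 34.3 and 5.76 CPM against 0.899 and 0.565 CPM. The part of these cell type differences in the results that follow was not tested, and in bulk RNA fewer cells of a type and less RNA per cell cannot be told apart.

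Only 7 of the 13 mitochondrially encoded members carried usable counts. In their order on the mitochondrial genome (GRCm38, GENCODE annotation), mt-Nd1 (M:2751-3707), mt-Nd2 (M:3914-4951) and mt-Co1 (M:5328-6872) had 156054, 66172 and 190260 counts over the 6 libraries. The next 6 genes, mt-Co2, mt-Atp8, mt-Atp6, mt-Co3, mt-Nd3 and mt-Nd4l, lie side by side from base 7013 to base 10173. Of these, mt-Atp6 had 4 counts, all in control library 2, and the other 5 had 0 counts in every library. Counts resumed at mt-Nd4 (M:10167-11544) with 75307, followed by mt-Nd5 (M:11742-13565) with 78859, mt-Nd6 on the opposite strand (M:13552-14070) with 28603 and mt-Cytb (M:14145-15288) with 544427. The run of 6 genes at or near 0 holds both members of complex V, a pair of the 3 members of complex IV, and 2 of the 7 members of complex I.

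Each mitochondrial transcript was cut into overlapping windows of 50 bases, and each window was looked up in the annotated transcripts of other genes. Windows of mt-Co2 were found in the pseudogene Gm28661 in 100% of cases, those of mt-Co3 in Gm28437 in 99.9%, of mt-Atp6 in Gm10925 in 99.5%, of mt-Nd4l in Gm10222 in 98.8% and of mt-Nd3 in Gm28438 in 98.0%, all on chromosome 1. Aligned without gaps, mt-Nd3 and Gm28438 differed at 1 of 345 bases and the other 4 pairs at 0 bases. No annotated copy was found for mt-Atp8, the sixth gene of the run, and mt-Nd4 (62.2%, Gm28439) and mt-Co1 (51.1%, Gm29216) kept high counts although they share windows too. The chromosome 1 copies themselves held few counts: 96 to 178 per library for Gm28438, 38 to 85 for Gm10222 and 1 to 19 for Gm10925. The values therefore say nothing of the level of these 6 messages, and how reads with several matches were counted is not given in the sources used here.

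The first 80 bases of mt-Co3 and its chromosome 1 copy are shown because they are letter for letter the same, so that no read from within them can be assigned to either. A stretch of mt-Nd2, a member with counts, and its copy Gm13339 on chromosome 2 is shown for contrast. Capitals mark the 5 bases at which this second pair differs. Both are GENCODE transcripts of GRCm38, 5′ to 3′. The mt-Co3 stretch lies at M:8607-8686 and the mt-Nd2 stretch at M:4615-4694, both on the plus strand.
mt-Co3: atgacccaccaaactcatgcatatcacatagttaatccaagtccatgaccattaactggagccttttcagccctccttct
Gm28437: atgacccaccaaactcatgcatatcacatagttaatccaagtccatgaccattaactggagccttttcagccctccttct
mt-Nd2: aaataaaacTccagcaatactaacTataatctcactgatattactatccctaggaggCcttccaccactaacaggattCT
Gm13339: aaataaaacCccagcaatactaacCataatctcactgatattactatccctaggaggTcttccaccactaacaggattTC
Over the 510 aligned bases mt-Nd2 and Gm13339 differed at 17, and Gm13339 had 1 to 4 counts per library where mt-Nd2 had 8390 to 13859.

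**Figure D1:**
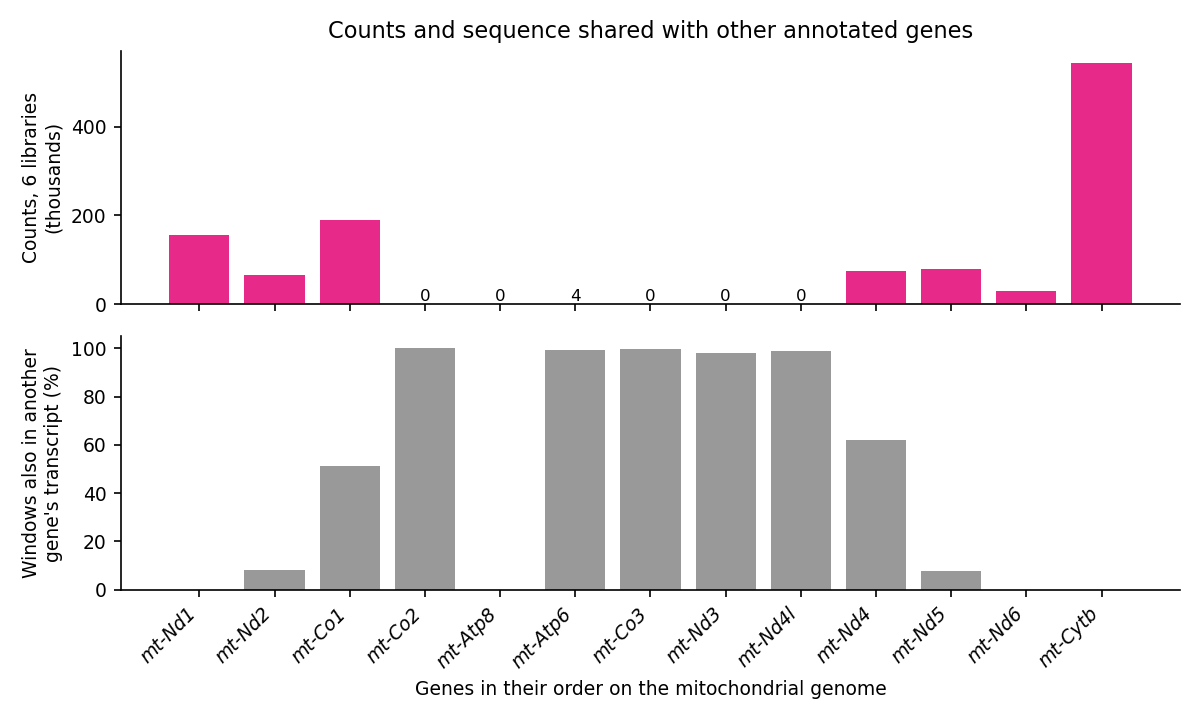
The 13 mitochondrially encoded members in genome order, with summed counts over the 6 libraries (upper bars) and the percentage of 50-base windows also present in another gene's annotated transcript (lower bars). The 6 genes from mt-Co2 to mt-Nd4l have 0 counts, or 4 for mt-Atp6, and 5 of them share 98.0% to 100% of windows, while mt-Atp8 shares 0%.

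Among nuclear members 4 could not be tested. Cox8b, Cox8c and Cox7b2, isoforms known from muscle and testis, had 0 counts in every library, and Cox6c2, annotated in GENCODE as a processed pseudogene, had 35 counts in all. The 83 tested members were thus 76 nuclear and 7 mitochondrially encoded genes. Of the 80 nuclear members, 44 shared no 50-base window with another gene's annotated transcript, 36 shared at least 1, and 6 shared more than 50%. Highest was Atp5g2 (100%, with Gm10231), followed by Atp5l (68.5%) and Atp5g1 (56.2%, with Gm10039). Levels of such members are uncertain to the extent that shared reads were dropped or split.

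In control explants the nuclear members of complexes III, IV and V stood at similar levels per transcript length and those of complex I lower. The median level was 164 CPM per kb for 36 complex I members, 385 CPM per kb for 8 of complex III, 318 CPM per kb for 15 of complex IV and 356 CPM per kb for 17 of complex V. Quartiles of the complexes were 99 to 234, 319 to 431, 63.1 to 431 and 288 to 428 CPM per kb in the same order. The quartile range of complex I thus lay below those of complexes III and V and within that of complex IV. Mitochondrially encoded levels were 3557 ± 439 CPM per kb for mt-Cytb, the haem-carrying subunit of complex III, 1224 ± 27.6 CPM per kb for mt-Nd1, a membrane subunit of complex I, and 847 ± 28.3 CPM per kb for mt-Co1, the catalytic subunit of complex IV (SD, n = 2). The remaining mitochondrial subunits of complex I ranged from 318 CPM per kb for mt-Nd5 to 497 CPM per kb for mt-Nd2. mt-Cytb was thus set apart from every nuclear member, and the means of mt-Nd1 and mt-Co1 also lay above them all. The highest nuclear member was Ndufa4 at 810 ± 124 CPM per kb (SD, n = 2), a spread that reaches the level of mt-Co1. Ndufa4 carries a complex I name and is known today as a subunit of complex IV. By that name it was counted under complex I throughout. Of the mitochondrial genes, mt-Co1 and mt-Nd4 share 51.1% and 62.2% of their windows with other genes. Their levels are uncertain to the extent that shared reads were dropped or split.

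Within complexes the levels spanned wide ranges. In complex I, grouped by name, the extremes were Ndufa4 and, at 18.4 CPM per kb, Ndufb4, which shares 37% of its windows with other genes. Apart from Ndufa4 the highest nuclear member was Ndufc1 at 634 CPM per kb. In complex III they were Uqcrq, at 738 CPM per kb, and the core protein Uqcrc2, at 128 CPM per kb. Atp5b, the catalytic beta subunit of the ATP synthase, reached 704 CPM per kb and Atp5l 32.1 CPM per kb. In complex IV Cox6b1 stood at 731 CPM per kb, while the tissue isoforms were far lower. Near the floor of detection were Cox6a2 of heart and skeletal muscle at 1.8 CPM per kb, Cox4i2 of lung at 2.74 and Cox7a1 of muscle at 5.83. Cox6b2 of testis was low at 17.8 CPM per kb, but it had 249 and 274 counts in the control libraries. The widely expressed partners of these isoforms were at 576 (Cox6a1), 580 (Cox4i1), 419 (Cox7a2) and 731 CPM per kb (Cox6b1).

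**Figure D2:**
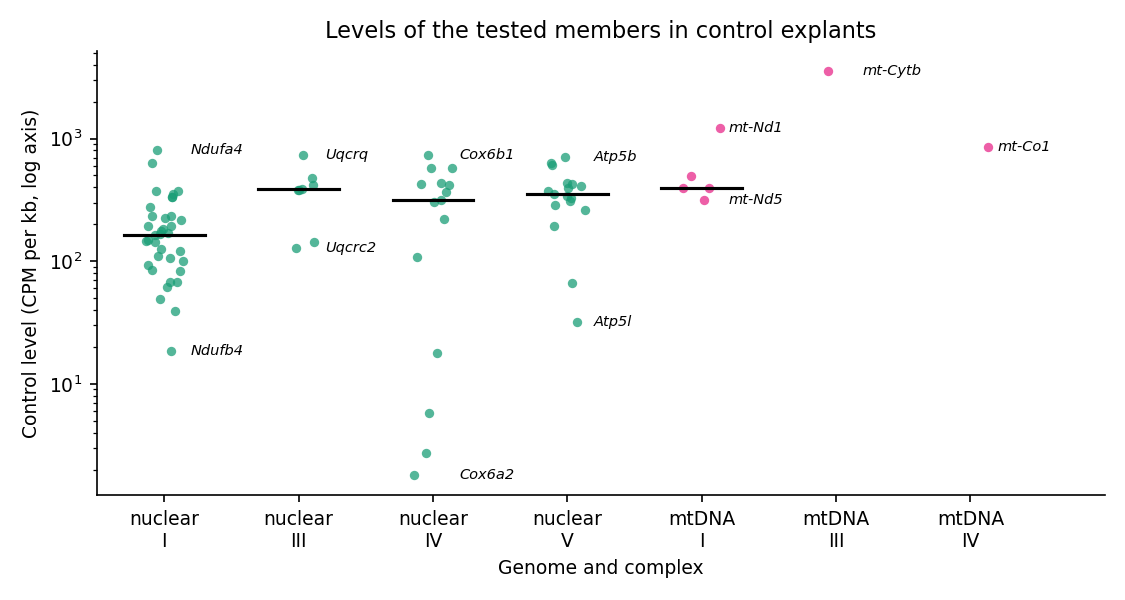
Mean level of each tested member in the 2 control libraries, in CPM per kb of transcript on a log axis, by genome (mtDNA is the mitochondrial DNA) and complex. Lines are medians, and mt-Cytb lies above every other point at 3557 CPM per kb.

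Promoter letters were read for the nuclear members because most of these genes varied together between control libraries, as described further on. RefSeq promoters (GRCm38.p6, 250 bases before to 50 after the start) were matched for 65 of the 80 nuclear members. The letters GCGCATGCG of an NRF1 site, searched on both strands, were present in 8 of the 65 members (12.3%) against 1.95% of 27025 genes. The letters CCGGAAG, read by GABPA and other ETS factors, were present in 15 members (23.1%) against 9.93% of genes, and AAGATGGCG of YY1 in 7 members (10.8%) against 1.64%. The NRF1 letters overlap their own reverse complement, and CCGGAAG and AAGATGGCG can overlap by 3 letters. At least 1 of the 3 was found in 25 members (38.5%) and in 12.7% of all genes, and a match is no proof of a bound site. The 4 members of highest control level with the NRF1 letters are shown with up to 20 bases on each side, 5′ to 3′ on the gene's strand, the match in capitals.
Cox6a1 at 5:115349092-115349140, minus strand: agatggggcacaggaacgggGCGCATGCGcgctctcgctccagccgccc
Uqcrc1 at 9:108936658-108936697, plus strand: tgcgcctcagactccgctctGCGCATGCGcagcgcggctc
Uqcr11 at 10:80406798-80406846, minus strand: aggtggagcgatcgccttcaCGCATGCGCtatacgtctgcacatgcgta
Ndufa11 at 17:56717682-56717730, plus strand: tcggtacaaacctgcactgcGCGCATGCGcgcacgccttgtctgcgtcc
In these lines Cox6a1 is the common isoform of a complex IV subunit, Uqcrc1 a core protein of complex III, Uqcr11 a small complex III subunit and Ndufa11 a membrane subunit of complex I. Members with the NRF1 letters had a median log2 fold change of -0.08 in PD over control and -0.12 in YZ9 over control, next to -0.09 and -0.16 for all tested nuclear members.

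Mitochondrially encoded members had lower summed values in both treated groups than in control explants, while the sums of the nuclear members overlapped between groups. The mitochondrially encoded members summed to 7111 and 6187 CPM in PD explants, 6601 and 6965 CPM in YZ9 explants, and 7996 and 8799.7 CPM in control explants. Both PD and both YZ9 libraries were below both control libraries. The nuclear members summed to 16182 and 15525 CPM in PD explants, 14432 and 15419 CPM in YZ9 explants, and 15332 and 17929 CPM in control explants. Here control library 1 lay below both PD libraries and below YZ9 library 2, so the groups overlapped.

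Counts of mitochondrially encoded over nuclear members had a ratio of 0.439 and 0.399 in PD explants, 0.457 and 0.452 in YZ9 explants, and 0.521 and 0.491 in control explants. The 4 treated libraries were all below the 2 control libraries, and the YZ9 pair lay above the PD pair. On the log2 scale the ratio differed by -0.27 in PD against control, by -0.15 in YZ9 against control and by -0.12 in PD against YZ9. Without PD library 2 the difference between PD and YZ9 was -0.05, and as a median over members the difference of YZ9 from control was -0.07. With the 2 most abundant members of each genome left out, the ratio was 0.193 and 0.191 in YZ9 explants against 0.23 and 0.192 in control explants, so that these groups overlapped. No test was run on a sum over the members. The male libraries alone, PD library 1 at 0.439 and YZ9 library 1 at 0.457, were also below both male controls. Cardiac markers went both ways in YZ9 library 1. Tnnt2 (819 CPM), Myh6 (207 CPM), Myh7 (502 CPM) and Nkx2-5 (39.9 CPM) were above both controls. The control values were 754 and 740.0, 134 and 114, 352 and 236, and 15.1 and 3.39 CPM in that order. Actc1 (1654 against 3309 and 2452 CPM) and Myl7 (616 against 628 and 668 CPM) were below both controls, and Myl4 lay between them. In PD library 2, which had the lowest ratio, every cardiac marker of the list was below both controls. The part of the cardiac markers in the ratio was not tested.

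No single member passed the test in any comparison. By edgeR's quasi-likelihood test with Benjamini-Hochberg adjustment over 15568 genes, 0 of 83 members had an adjusted p under 0.05 in PD against control, where 0.0964% of all genes did. In YZ9 against control 0 of 83 members passed, where 0.00642% of genes did, and in PD against YZ9 0 of 83, where 0.122% of genes did. Unadjusted p values under 0.05 were found for 5, 8 and 2 members in the 3 comparisons by edgeR. The numbers were 4, 6 and 1 by DESeq2 and 5, 8 and 1 by limma-trend, and both other tools also called 0 members. The share of all genes with an unadjusted p under 0.05 was not counted, so these numbers cannot be read as particular to the members. No member had an adjusted p under 0.05, out of 84 with a value in PD against control and 83 in YZ9 against control, in the authors' deposited table of each comparison. Over all genes with a value there, 594 of 16192 in PD and 586 of 15237 in YZ9 were under 0.05 by the authors' DESeq2. Both comparisons use the same 2 control libraries.

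All 7 measured mitochondrially encoded members were lower in both PD libraries than in both control libraries, a pattern shown by 19.5% of all genes. The same 7 were lower in both YZ9 libraries than in both controls, where 24.5% of genes were. These genes come from the same long transcripts and are not independent of each other. Their median log2 fold change was -0.36 in PD and -0.26 in YZ9 against control, next to 0.00 over all genes tested in each comparison.

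The largest difference of the 7, in both treatments, was that of mt-Nd2. This membrane subunit of complex I had 388 and 338 CPM in PD explants, 389 and 388 CPM in YZ9 explants, and 519 and 513 CPM in control explants. Its treated libraries were all low and its controls nearly equal. The log2 fold change was -0.51 ± 0.13 (SE) in PD with an adjusted p of 0.229, and -0.41 ± 0.13 in YZ9 with an adjusted p of 0.348 (edgeR). mt-Nd4, also a membrane subunit, had 426 and 397 CPM in PD explants, 473 and 495 CPM in YZ9 explants, and 570 and 524 CPM in control explants, with the 3 groups in separate ranges. Its log2 fold change was -0.41 in PD (95% interval -0.72 to -0.10) and -0.18 in YZ9 (-0.48 to 0.13). mt-Nd1 had 949 and 872 CPM in PD explants, 906 and 913 CPM in YZ9 explants, and 1153 and 1190.2 CPM in control explants, a log2 fold change of -0.36 in both treatments. mt-Nd5 had 459 and 424 CPM in PD explants, 433 and 536 CPM in YZ9 explants, and 563 and 596 CPM in control explants, where YZ9 library 2 came close to control library 1. mt-Nd6, the complex I subunit encoded on the other strand, had 181 and 153 CPM in PD explants, 168 and 181 CPM in YZ9 explants, and 199 and 213 CPM in control explants. The library kit does not keep the strand, so mt-Nd6 cannot be told apart from reads of the opposite strand.

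mt-Cytb had 3528 and 2894 CPM in PD explants, 3033 and 3251 CPM in YZ9 explants, and 3714 and 4424 CPM in control explants. The treated libraries were below both controls, but the controls themselves lay further apart than PD library 1 lay from control library 1, and the log2 fold changes of -0.34 in PD and -0.37 in YZ9 had adjusted p values of 0.512 and 0.441 (edgeR). mt-Co1 had the smallest difference, with 1179.6 and 1109.7 CPM in PD explants, 1199 and 1199.7 CPM in YZ9 explants, and 1277 and 1339 CPM in control explants. Its log2 fold change was -0.19 in PD (95% interval -0.48 to 0.09) and -0.13 in YZ9 (-0.41 to 0.16).

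**Figure D3:**
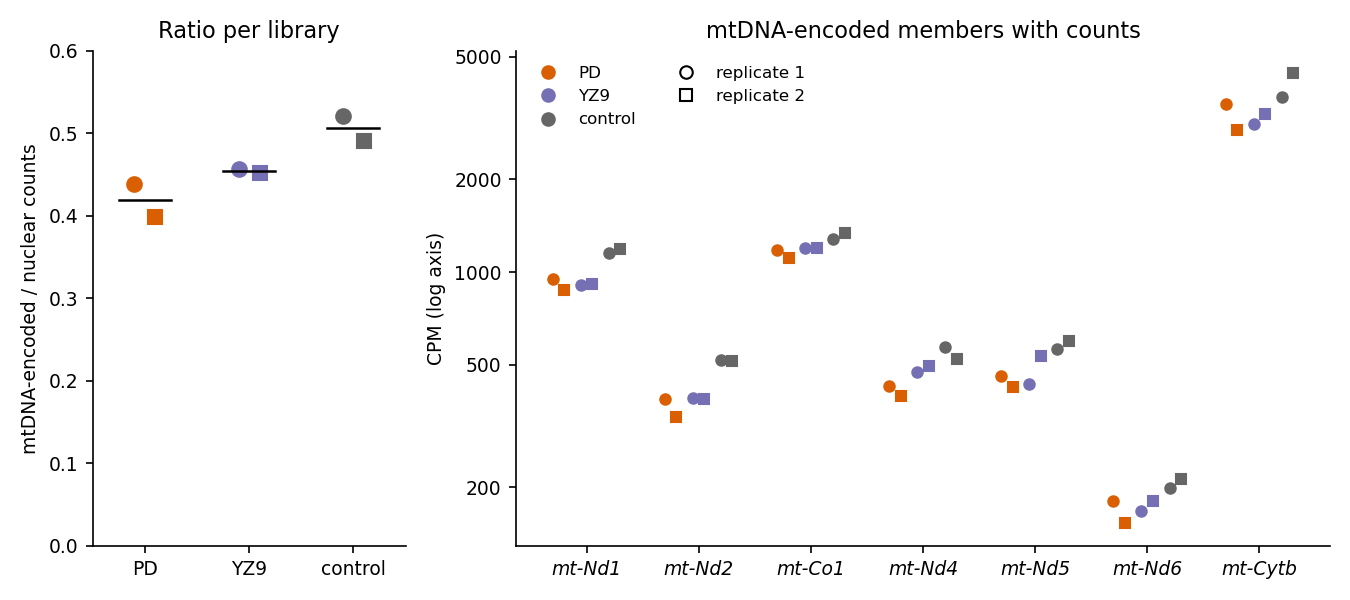
Left, the ratio of mitochondrially encoded (mtDNA) to nuclear member counts in each library, with the group mean as a line. Right, CPM of the 7 mitochondrially encoded members with counts, on a log axis, per library (circles replicate 1, squares replicate 2). Every PD and YZ9 point lies below both control points of the same gene, and the ratio is 0.399 to 0.457 in treated against 0.491 and 0.521 in control libraries.

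Ribosomal RNA of the mitochondria, which is no member, gave a less even picture. mt-Rnr2 had 2626 and 1953 CPM in PD explants, 2246 and 1587 CPM in YZ9 explants, and 2869 and 2803 CPM in control explants, again lower in all 4 treated libraries, with adjusted p values of 0.72 and 0.404 (edgeR). mt-Rnr1 had 152 and 94.0 CPM in PD explants, 126 and 86.6 CPM in YZ9 explants, and 122 and 106 CPM in control explants, with overlap in both comparisons.

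For the nuclear members the differences from control were small and depended on which control library was left out. Their median log2 fold change was -0.09 in PD and -0.16 in YZ9 against control, with 61 and 66 of 76 negative. In PD 9 of 76 (11.8%) were lower in both libraries than in both controls, below the 19.5% of all genes, and 0 of 76 were higher, against 19.2% of all genes. In YZ9 25 of 76 (32.9%) were lower in both libraries, above the 24.5% of all genes, and 2 of 76 (2.63%) were higher, against 21.1% of all genes. Control library 2 exceeded control library 1 in 73 of the 76 nuclear members (96.1%), with a median log2 difference of 0.28, while 49.9% of all genes tested did so. Without control library 2 the nuclear median was 0.06 in PD and -0.01 in YZ9, and without control library 1 it was -0.22 and -0.31. Blood and endothelial markers summed to 7776 CPM in control library 2 and 2637 CPM in control library 1. Globins carried these sums, with Hba-x at 4961 and 1478 CPM. The endothelial markers Cdh5 (19.6 against 22.6 CPM) and Tie1 (10.1 against 12.7 CPM) were lower in control library 2, and Pecam1 (60.4 against 49.9 CPM) was higher. The part of such differences in the nuclear members was not tested. In PD explants library 2, the one with more blood markers, was higher than library 1 in 25 of 76 nuclear members (32.9%), and in YZ9 explants in 61 of 76 (80.3%). Mitochondrially encoded members differed less between the controls, with a median log2 difference of 0.07.

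In PD against control the nuclear medians were -0.07 for complex I, -0.04 for complex III, -0.13 for complex IV and -0.08 for complex V. In YZ9 against control they were -0.13, -0.12, -0.23 and -0.16 in the same order. Within complex I the 7 nuclear core subunits, which hold the electron path, had medians of -0.06 and -0.05, and the 29 accessory subunits of -0.07 and -0.15. The mitochondrially encoded subunits of complex I met the nuclear ones only at the edge in PD explants, with 5 of 5 log2 fold changes between -0.51 and -0.30 while the 36 nuclear ones ranged from -0.30 to 0.34. In YZ9 explants the ranges overlapped, at -0.41 to -0.18 for the mitochondrial and -0.56 to 0.71 for the nuclear subunits.

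**Figure D4:**
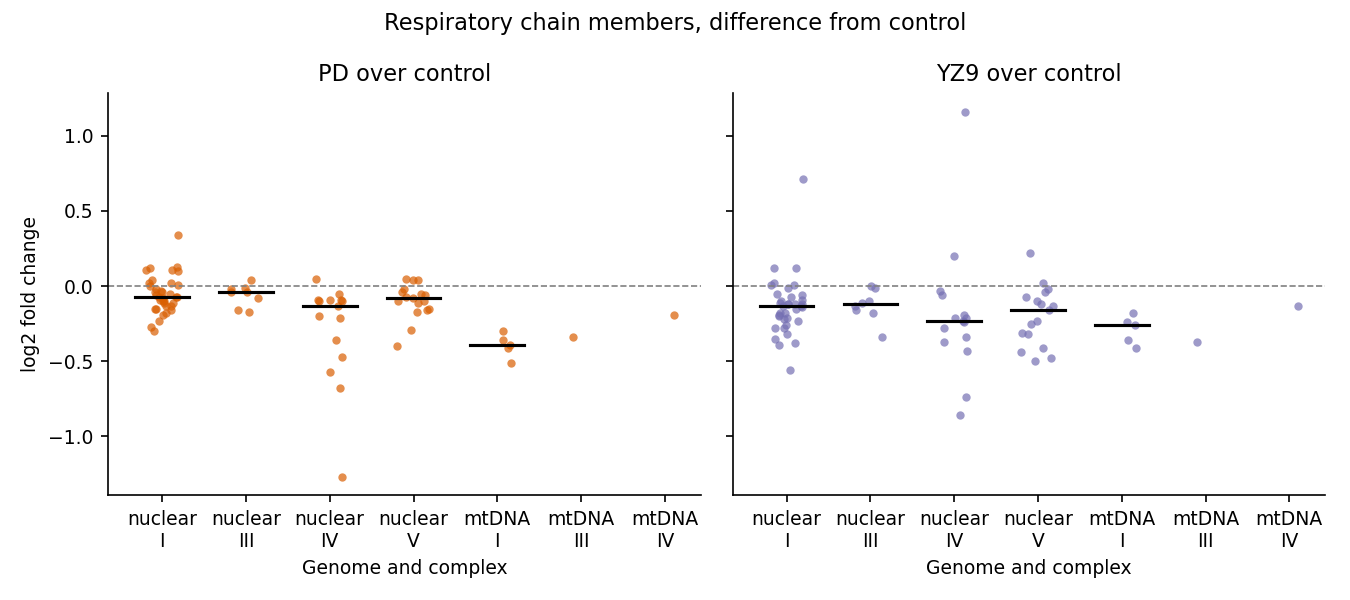
log2 fold change of each tested member in PD over control (left) and YZ9 over control (right), by genome (mtDNA is the mitochondrial DNA) and complex, with the median as a line where there is more than 1 gene. Mitochondrially encoded members lie between -0.51 and -0.19 in PD and between -0.41 and -0.13 in YZ9, and nuclear medians between -0.23 and -0.04.

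In complex I, Ndufs8 (19:3908863-3912774), which carries iron-sulfur clusters of the peripheral arm, had 97.0 and 86.0 CPM in PD explants, 71.0 and 69.8 CPM in YZ9 explants, and 95.6 and 112 CPM in control explants. The YZ9 libraries were below all 4 others. The log2 fold change was -0.56 ± 0.16 in YZ9 against control (adjusted p = 0.294) and 0.38 ± 0.16 in PD against YZ9 (adjusted p = 0.433, edgeR). Ndufs5 (4:123712710-123718202), an accessory subunit, differed in the other direction, with 37.6 and 21.9 CPM in PD explants, 36.3 and 40.4 CPM in YZ9 explants, and 21.8 and 25.3 CPM in control explants. Both YZ9 libraries and PD library 1 were high, and PD library 2 was at the control level. Its log2 fold change was 0.71 ± 0.29 (SE) in YZ9 and 0.34 ± 0.29 in PD, and 35.6% of its windows are shared with other transcripts, foremost BC002163. Ndufa3 had 86.5 and 76.9 CPM in PD explants, 77.1 and 85.6 CPM in YZ9 explants, and 89.8 and 107 CPM in control explants. Ndufb3 had 53.6 and 52.0 CPM in PD explants, 45.2 and 53.7 CPM in YZ9 explants, and 53.7 and 76.0 CPM in control explants, where control library 2 alone stood out. Ndufa11 had 232 and 208 CPM in PD explants, 183 and 197 CPM in YZ9 explants, and 182 and 221 CPM in control explants, where both PD libraries were above both YZ9 libraries and the controls overlapped with each.

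In complex III no nuclear member was lower in both PD libraries than in both controls, and 1 of 8 was lower in both YZ9 libraries, where 19.5% and 24.5% of all genes were. The log2 fold changes ran from -0.17 to 0.04 in PD and from -0.34 to 0.00 in YZ9. Uqcrq, a small subunit near the haem protein cytochrome b, had 326 and 239 CPM in PD explants, 238 and 236 CPM in YZ9 explants, and 259 and 339 CPM in control explants. PD library 1 and control library 2 were the high ones.

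In complex IV, 3 of 15 nuclear members were lower in both PD libraries than in both controls, against 19.5% of all genes, and 9 of 15 in both YZ9 libraries, against 24.5% of all genes. The low-level isoforms gave the largest fold changes of the complex in PD against control, and in YZ9 against control Cox6a2 had the largest positive and the abundant Cox7b the largest negative one. Cox6b2 (7:4751792-4753094), known as the testis form of subunit 6B, had 2.65 and 5.47 CPM in PD explants (69 and 136 counts), 4.79 and 6.98 CPM in YZ9 explants (107 and 207 counts), and 9.33 and 10.3 CPM in control explants (249 and 274 counts). All 4 treated libraries were below both controls, and library 2 was the higher one in each treated group. The log2 fold change was -1.27 ± 0.43 in PD with an adjusted p of 0.331 and -0.74 ± 0.42 in YZ9 with an adjusted p of 0.561 (edgeR), and without library 1 of the treated group it was -0.84 in PD and -0.48 in YZ9. Cox6a2, the heart and skeletal muscle form of subunit 6A, had 31 and 8 counts in PD explants, 76 and 62 counts in YZ9 explants, and 30 and 35 counts in control explants. The YZ9 libraries were above the other 4, and PD library 2 was the lowest. In PD against YZ9 the log2 fold change was -1.85 ± 0.70 (adjusted p = 0.398, edgeR), the largest difference of any tested member in that comparison, and it was -3.07 without PD library 1 and -1.21 without PD library 2.

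Cox4i2, the form of subunit 4 known from lung and from low oxygen, had 4 and 63 counts in PD explants, 22 and 106 counts in YZ9 explants, and 52 and 54 counts in control explants. The 2 libraries of each treated group differed far more than the controls, with PD library 1 close to 0, and its 95% interval in PD against control spanned -3.25 to 2.12 on the log2 scale. Cox7a1, the muscle form of subunit 7A, had 42 counts in each PD library, 40 and 48 counts in YZ9 explants, and 41 and 81 counts in control explants. Of the widely expressed partners, Cox4i1 had 418 CPM in each PD library, 373 and 386 CPM in YZ9 explants, and 423 and 441 CPM in control explants. Cox6a1 had 328 and 355 CPM in PD explants, 330 and 314 CPM in YZ9 explants, and 326 and 332 CPM in control explants. The YZ9 pair of Cox4i1 was the lowest, and the groups of Cox6a1 overlapped. Cox6b1, the common partner of Cox6b2, had 409 and 375 CPM in PD explants, 340 and 360 CPM in YZ9 explants, and 403 and 500 CPM in control explants, a log2 fold change of -0.20 in PD and -0.37 in YZ9. Cox7a2, the common partner of Cox7a1, had 283 and 233 CPM in PD explants, 220 and 233 CPM in YZ9 explants, and 252 and 300.0 CPM in control explants. Its relative Cox7a2l, known for joining complexes III and IV, had 116 and 104 CPM in PD explants, 112 and 111 CPM in YZ9 explants, and 113 and 120.0 CPM in control explants. For Cox6b1, Cox7a2 and Cox7a2l both YZ9 libraries were below both controls, and the PD libraries of Cox6b1, Cox7a2 and Cox7a2l lay partly within the control range. Cox8a had 170 and 181 CPM in PD explants, 168 and 175 CPM in YZ9 explants, and 197 and 208 CPM in control explants, lower in all 4 treated libraries.

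Cox7b (X:106015700-106022450) was the X-linked member with the widest spread. It had 398 and 280 CPM in PD explants, 156 and 324 CPM in YZ9 explants, and 363 and 506 CPM in control explants. YZ9 library 1, which is male, was lowest at 3481 counts. The 2 male controls also lay apart, though by less in proportion than the 2 YZ9 libraries. The log2 fold change in YZ9 was -0.86 ± 0.37 with an adjusted p of 0.452 (edgeR), and it was -0.42 without YZ9 library 1 and -1.46 without YZ9 library 2. The other X-linked members spread less. Ndufa1 had 105 and 76.7 CPM in PD explants, 86.2 and 81.1 CPM in YZ9 explants, and 84.1 and 112 CPM in control explants. Ndufb11 had 151 and 154 CPM in PD explants, 140 and 164 CPM in YZ9 explants, and 153 and 177 CPM in control explants, so that the female libraries, PD 2 and YZ9 2, were within the range of the male ones for Ndufb11 and below it for Ndufa1.

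In complex V, 2 of 17 nuclear members were lower in both PD libraries than in both controls, against 19.5% of all genes, and 8 of 17 in both YZ9 libraries, against 24.5% of all genes. Atp5e, the epsilon subunit of the rotating stalk, had 126 and 131 CPM in PD explants, 103 and 105 CPM in YZ9 explants, and 127 and 149 CPM in control explants, so that the YZ9 pair alone was low. Its log2 fold change was -0.41 in YZ9 (95% interval -0.76 to -0.06) and -0.11 in PD (-0.46 to 0.25). Atp5k, the membrane subunit e, had 106 and 80.9 CPM in PD explants, 81.4 and 79.6 CPM in YZ9 explants, and 100 and 128 CPM in control explants. Both YZ9 libraries and PD library 2 lay between 79.6 and 81.4 CPM.

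Subunit c of the ATP synthase, which forms the turning ring in the membrane, has 3 genes that make the same mature protein. Atp5g1 had 218 and 156 CPM in PD explants, 161 and 203 CPM in YZ9 explants, and 220 and 272 CPM in control explants, with log2 fold changes of -0.40 in PD and -0.44 in YZ9. The value in PD was -0.65 without PD library 1 and -0.18 without PD library 2. Atp5g2 had 26.2 and 26.3 CPM in PD explants, 25.3 and 29.1 CPM in YZ9 explants, and 31.3 and 27.7 CPM in control explants. Atp5g3, the most abundant of the 3 per length at 604 CPM per kb in controls, had 403 and 429 CPM in PD explants, 403 and 434 CPM in YZ9 explants, and 429 and 434 CPM in control explants. Atp5g1 shares 56.2% and Atp5g2 100% of its windows with other genes, and Atp5g3 shares none.

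**Figure D5:**
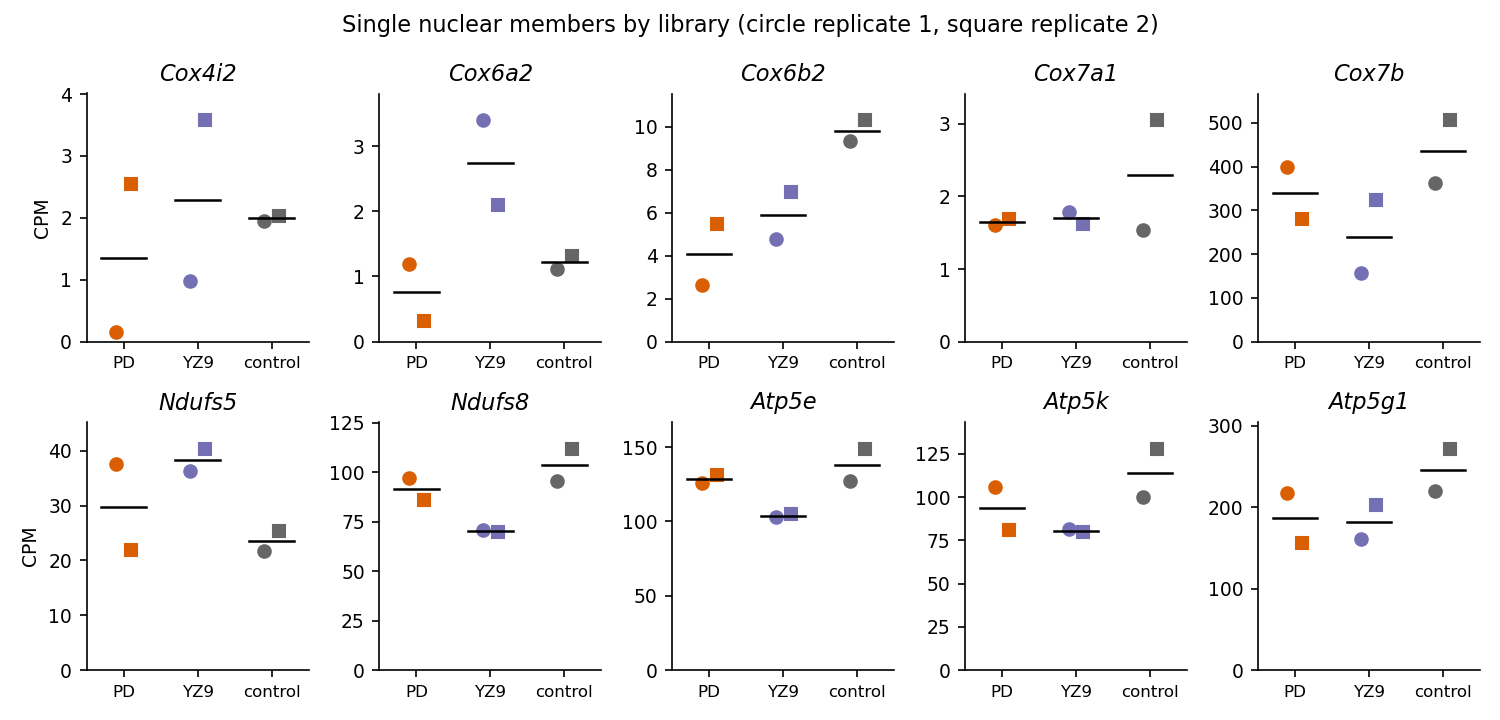
CPM of 10 nuclear members in each library (circles replicate 1, squares replicate 2) with the group mean as a line and axes starting at 0. YZ9 points of Ndufs8 and Atp5e lie below all others, those of Cox6a2 above all others, and all PD and YZ9 points of Cox6b2 lie below both controls.

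PD and YZ9 explants, treated at different doses, were also set against each other. Nuclear members had a median log2 fold change of 0.09 in PD against YZ9, with 22 of 76 (28.9%) higher in both PD libraries, against 21.6% of all genes, and 1 of 76 (1.32%) lower, against 21.4% of all genes. Mitochondrially encoded members had a median of -0.07, and mt-Co1 and mt-Nd4, 2 of the 7, were lower in both PD libraries. The nuclear members of smallest p were Cox6a2, Ndufs8 and Atp5e, described above, and Atp5o, Ndufb2 and Cox5b. Atp5o, the subunit that joins the catalytic head to the outer stalk of the ATP synthase, had 572 and 471 CPM in PD explants and 409 and 436 CPM in YZ9 explants. Cox5b, a complex IV subunit that binds zinc, had 194 and 162 CPM in PD explants and 155 and 149 CPM in YZ9 explants. Ndufb2, an accessory subunit of complex I, had 32.2 and 28.8 CPM in PD explants and 21 and 26.7 CPM in YZ9 explants. Without YZ9 library 1, which had the lowest nuclear sum, the nuclear median was 0.01.

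Genes that work with the chain were counted from lists, and 0 genes of these lists passed the edgeR test in any comparison. The list of complex II and cytochrome c, 6 genes, also held Cyc1, cytochrome c1 of complex III, which the name rule does not match. The medians of this list were -0.04 in PD and -0.15 in YZ9 against control. Of its 6 genes, 4 were lower in both YZ9 libraries than in both controls, against 24.5% of all genes. Cycs, cytochrome c, had 280 and 232 CPM in PD explants, 202 and 215 CPM in YZ9 explants, and 231 and 317 CPM in control explants. Sdhc, a membrane anchor of complex II, had 116 and 137 CPM in PD explants, 132 and 135 CPM in YZ9 explants, and 121 and 111 CPM in control explants. The 45 assembly factors tested had medians of -0.06 and -0.12, and the 77 mitochondrial ribosomal proteins of -0.06 and -0.09. Unadjusted p values under 0.05 (edgeR) were found for 1 and 1 assembly factors and for 0 and 5 ribosomal proteins. The share of all genes under that value was not counted, so these numbers cannot be read as particular to the lists. Timmdc1, an assembly factor of complex I, had 35.9 and 27.8 CPM in PD explants, 49.5 and 40.4 CPM in YZ9 explants, and 45.3 and 46.3 CPM in control explants, with the PD pair lowest. Uqcc2, an assembly factor of complex III, had 125 and 136 CPM in PD explants, 91.0 and 95.4 CPM in YZ9 explants, and 120.0 and 154 CPM in control explants, with the YZ9 pair lowest. Mrpl54, a protein of the large mitochondrial ribosomal subunit, had 119 and 124 CPM in PD explants, 75.6 and 82.5 CPM in YZ9 explants, and 107 and 106 CPM in control explants, in 3 separate ranges. Mrpl52 of the same subunit had 33.7 and 32.4 CPM in PD explants, 45.4 and 34.9 CPM in YZ9 explants, and 42.9 and 42.8 CPM in control explants.

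Among 25 genes for transcription and RNA handling of the mitochondrial genome the medians were 0.00 in PD and 0.08 in YZ9, and 2 of the 25 were higher in both PD libraries and 7 in both YZ9 libraries than in both controls, next to 19.2% and 21.1% of all genes. Polrmt, the mitochondrial RNA polymerase, had 6.30 and 8.13 CPM in PD explants, 16.6 and 8.03 CPM in YZ9 explants, and 6.97 and 4.44 CPM in control explants, with YZ9 library 1 far above the rest. Polg, the mitochondrial DNA polymerase, had 23.5 and 35.9 CPM in PD explants, 36.9 and 37.2 CPM in YZ9 explants, and 28.5 and 15.5 CPM in control explants. The YZ9 values of both enzymes were above both controls.

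Of 11 biogenesis regulators tested the medians were -0.19 in PD and 0.14 in YZ9. Ppargc1a, a coactivator of mitochondrial gene programmes, had 153 and 9 counts in PD explants, 163 and 112 counts in YZ9 explants, and 288 and 249 counts in control explants. All 4 treated libraries were below both controls, with PD library 2 near 0, and the log2 fold change in PD was -1.69 ± 1.01 with an adjusted p of 0.658 (edgeR). Hcfc1 had the smallest p of the list in YZ9 against control and in PD against YZ9. Its levels were 45.1 and 45.4 CPM in PD, 68.9 and 62.6 CPM in YZ9, and 59 and 48.9 CPM in control explants. The log2 fold change of Hcfc1 in PD against YZ9 was -0.54 ± 0.17 with an adjusted p of 0.337 (edgeR). Among 16 genes for isoform and oxygen responses the medians were -0.01 and -0.14. Ucp2, a carrier of the inner membrane, had 29.7 and 39.9 CPM in PD explants, 16.9 and 18.5 CPM in YZ9 explants, and 36.4 and 31.6 CPM in control explants, and its YZ9 libraries were the 2 lowest. Its log2 fold change was -0.94 ± 0.23 in YZ9 against control (adjusted p = 0.251) and 0.97 ± 0.23 in PD against YZ9 (adjusted p = 0.224, edgeR).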

How the data were processed

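The submitters' processing notes name the aligner STAR (2.7.9a), CASAVA (1.8.2), DESeq2 (1.40.1) and the build GRCm38. How reads were counted, and on which annotation, is not given in the sources used here. Per the file headers, the 2 deposited tables hold whole-number counts per gene and library, and the authors' log2 fold changes and adjusted p-values. The 8 deposited columns of normalized values were not used. Counts of 6 libraries were joined and filtered with filterByExpr (minimum count 10, minimum total 15), which kept 15568 genes, then scaled by TMM and tested in 1 fit with edgeR 4.0.16 in R 4.3.3 (glmQLFit, glmQLFTest, 2-sided, 3 residual degrees of freedom, Benjamini-Hochberg threshold 0.05). Alternatives used DESeq2 1.42.0 and limma 3.58.1. Intervals of log2 fold changes are 95% intervals from the same fit, and SD are between 2 libraries. CPM use TMM-scaled library sizes, and levels per kb divide by the principal GENCODE transcript. Sums and ratios over members, and medians, are descriptions with no test.

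Members and lists were chosen with earlier results of these data known. Named were all mitochondrially encoded members, and per comparison the 6 nuclear members of smallest p and the 2 largest differences each way. Tissue isoforms, X-linked members and the highest and lowest level of each complex were also named. From each list the genes of smallest p per comparison were described, except Slc25a5 (PD against control), Sdha and Twnk (both PD against YZ9). The mitochondrial ribosomal RNAs, the pseudogene copies, the single cardiac markers, the cardiac sum without Actc1 and the promoter examples were chosen after their values were seen.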

Additional observations from a re-analysis of the deposited data

How the results depend on the processing

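Under 16 other settings (another scaling, filter, tool or model, and each library left out in turn) 0 members passed in any of the 3 comparisons. The number of all genes called varied more: in PD against control 712 without a filter, 604 with DESeq2, 124 with sex as a covariate, 1 with the replicate block and 0 without either control library; in YZ9 against control 556, 509, 122 and 3 in the same order, and in PD against YZ9 601, 508, 173 and 12. The smallest adjusted p of a member was 0.055 (Cox7b, YZ9 against control, no filter), and over the 17 settings the values for that gene stayed above the threshold. Medians of mitochondrially encoded members ran from -0.45 to -0.30 in PD against control, from -0.36 to -0.17 in YZ9 against control and from -0.19 to -0.01 in PD against YZ9 with 1 library left out. The nuclear median of PD against YZ9 ran from 0.01 to 0.12. The log2 ratio of mitochondrially encoded to nuclear counts as a median over members was -0.07 in YZ9 against control, with control library 2 then below YZ9 library 1 and YZ9 library 2, and -0.27 in PD against YZ9. Without the 2 most abundant members of each genome PD against YZ9 gave -0.19. Single members were followed over the settings only where their p or difference was extreme in a comparison, or, against control, where mitochondrially encoded. Of the values followed, those that changed sign with a library left out were the nuclear median of PD against control (-0.22 to 0.06), Cox4i2 in PD against YZ9 (-3.87 to 0.43), Ndufa11 in PD (-0.01 to 0.27) and Ndufs5 in PD (-0.11 to 0.67). Cox4i2 against control was not followed, and the cause of the sign changes was not tested. Replicate numbers share only a number: the deviations of same-numbered libraries correlated at -0.0985 between PD and control, 0.166 between YZ9 and control and 0.353 between PD and YZ9, and with the replicate block the mitochondrially encoded medians were -0.36, -0.26 and -0.07. Depth limits Cox4i2 and Cox6a2, with 4 to 106 counts per library, and 2 libraries a group limit every comparison.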
